A study of Mus musculus with 34 samples.

Results

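The genes described here are 9 genes of the smooth muscle contractile apparatus that mark peritubular myoid cells of the testis: Acta2, Actg2, Myh11, Myl9, Mylk, Cnn1, Tagln, Tpm2 and Des. They were chosen by name, with earlier results of these data known. Each was read on the probe with the highest mean signal of those matched to it. Of these 9 genes, 8 had a matched probe (13 probes in all) among 33370 gene names on the array, and Myl9 had none. Levels were compared over 34 one-colour microarrays in 17 groups of 2 biological duplicates, all from C57BL6/j mice of 6 to 8 weeks. Staged seminiferous tubules (2 arrays each of stages I-III, IV-VI, VII-VIII, and, as a last group, IX-XII) came from testes injected with a lentivirus carrying dnRARa, a retinoic acid receptor alpha that acts as a dominant negative, from testes injected with a lentivirus carrying Venus, a fluorescent protein, and from untreated testes. The third stage group is VI-VIII in the sample titles and VII-VIII in the source names. The source names are followed here, and by the titles it could overlap IV-VI. Injected testes were dissected 5 days after injection. Neither the promoter driving dnRARa nor the cells that took up the virus are given in the labels. The other groups were cultured wild type Sertoli cells given retinoic acid (labelled 1 mM) for 24 h or vehicle, freshly sorted Sertoli cells of Nanos3 knockout (N3KO) mice, freshly sorted wild type (WT) Sertoli cells, and whole testes. The gate of the sort is not given in the labels.

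Peritubular myoid cells are flattened, contractile cells that surround each seminiferous tubule, and their contractions help to move immotile sperm and fluid along it. They contract as smooth muscle does: myosin II pulls on actin filaments once myosin light chain kinase has phosphorylated the regulatory light chain of myosin. The same proteins are made by vascular smooth muscle and pericytes, so the genes mark a contractile programme and not a single cell type. Among them, Acta2 and Actg2 encode the smooth muscle alpha and gamma actins, Myh11 the smooth muscle myosin heavy chain, Myl9 a regulatory light chain, and Mylk the light chain kinase. Cnn1 (calponin 1) and Tpm2 (beta-tropomyosin) are actin-filament regulators, Tagln (transgelin, SM22 alpha) is an actin-binding protein, and Des (desmin) is the muscle intermediate filament. In mice, Actg2 is also known from haploid male germ cells. Retinoic acid signals in the seminiferous epithelium through nuclear receptors, and its level is known to vary with the stage of the epithelium.

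Smooth muscle genes are classically controlled by serum response factor, which binds the CArG box (CC and GG around 6 bases that are A or T). Because 5 of the 8 measured genes were lower with dnRARa, the 250 bases before the annotated start are shown for those of the 5 that the RefSeq promoter table holds, together with Myl9. The build is GRCm38.p6, and each sequence runs 5′ to 3′ on the gene's strand. Capitals mark CArG boxes and near matches with at most 1 of the 6 central bases other than A or T. The windows are chr19:34255374-34255623 (minus strand) for Acta2, chr9:22099003-22099252 (plus) for Cnn1, chr16:34784700-34784949 (plus) for Mylk, chr4:43523555-43523804 (minus) for Tpm2 and chr2:156775214-156775463 (plus) for Myl9. Actg2, Myh11 and Tagln had no entry in the table.
Acta2: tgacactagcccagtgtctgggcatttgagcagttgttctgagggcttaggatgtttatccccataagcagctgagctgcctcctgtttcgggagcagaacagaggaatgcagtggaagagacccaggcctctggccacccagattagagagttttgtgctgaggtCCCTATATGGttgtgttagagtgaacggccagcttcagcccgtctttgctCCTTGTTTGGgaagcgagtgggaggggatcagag
Cnn1: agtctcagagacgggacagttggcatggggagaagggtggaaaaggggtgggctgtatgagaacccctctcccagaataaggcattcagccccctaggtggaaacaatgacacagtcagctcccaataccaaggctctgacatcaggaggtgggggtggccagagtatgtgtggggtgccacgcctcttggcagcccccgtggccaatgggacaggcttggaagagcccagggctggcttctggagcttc
Mylk: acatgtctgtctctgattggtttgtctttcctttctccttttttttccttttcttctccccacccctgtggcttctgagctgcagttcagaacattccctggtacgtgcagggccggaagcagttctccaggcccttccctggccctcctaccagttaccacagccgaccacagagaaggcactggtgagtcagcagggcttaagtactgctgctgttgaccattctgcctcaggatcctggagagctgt
Tpm2: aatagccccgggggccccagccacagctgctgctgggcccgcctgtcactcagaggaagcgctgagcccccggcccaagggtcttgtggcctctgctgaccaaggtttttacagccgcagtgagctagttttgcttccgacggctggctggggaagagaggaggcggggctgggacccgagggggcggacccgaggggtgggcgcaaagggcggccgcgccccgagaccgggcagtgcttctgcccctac
Myl9: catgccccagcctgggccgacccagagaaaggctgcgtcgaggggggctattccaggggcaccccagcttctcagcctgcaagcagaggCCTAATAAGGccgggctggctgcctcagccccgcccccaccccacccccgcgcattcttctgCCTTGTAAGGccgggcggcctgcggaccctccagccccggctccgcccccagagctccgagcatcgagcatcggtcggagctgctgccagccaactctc

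Myl9 held a full CArG box, CCTAATAAGG, from 161 to 152 bases before the start, and a near match, CCTTGTAAGG, from 99 to 90 bases before it. Acta2 held near matches, CCCTATATGG from 84 to 75 bases and CCTTGTTTGG from 34 to 25 bases before the start. The windows of Cnn1, Mylk, Tpm2 and Des held neither form. Of 32851 promoters of this length, 1.47% held a full box and 8.59% a box or a near match, against 1 and 2 of the 6 genes with a sequence. Direct repeats of the consensus retinoic acid receptor half-site, spaced by 5 or by 2 bases, were each in 0.00913% of promoters and in none of the 6. Both strands were searched for every motif, and a match or its lack describes only these letters.

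A level below is log2 of the processed signal minus the 75th percentile of that array, so 0 is the signal at that percentile and differences are on the log2 scale. Levels of different probes are not comparable with each other. The probes of 7 genes stood well above background on all 34 arrays, and none was saturated. The exception was Des, well above background on 29 of 34 arrays, with 3 of the 8 untreated tubule arrays among them. The spots of the Tagln probe were marked uneven by the scanner software on both whole testis arrays and on array 2 of sorted WT cells, and were left out there. Duplicates correlated at 0.978 to 0.999 over all probes, and between 54.9% and 74.4% of spots stood well above background. The arrays came from 10 slides scanned on 5 days. The 16 injected arrays sat on 4 slides, each with 1 virus and all 4 stages. Each injected arm thus rests on 2 slides, and virus and slide cannot be fully told apart. Array 1 of dnRARa and of Venus was scanned on an earlier day, and array 2 of each on a later day. With 2 arrays a group, the number of arrays limits the precision of every value.

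The labels were set against marker genes. Nanos3 was not well above background on either N3KO array (-7.27 and -7.11), against -4.44 to -3.21 on the sorted WT arrays. Rara read -4.79 to -3.62 on dnRARa arrays and -5.20 to -4.63 on Venus arrays, and was higher with dnRARa (difference 0.65, limma adjusted p = 0.0108). Whether its probe lies in the part of the receptor carried by the vector is not given in the labels. All preparations carried transcripts of several cell types, so for every result on these genes, fewer contractile cells and less RNA per cell cannot be told apart.

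**Figure D1:**
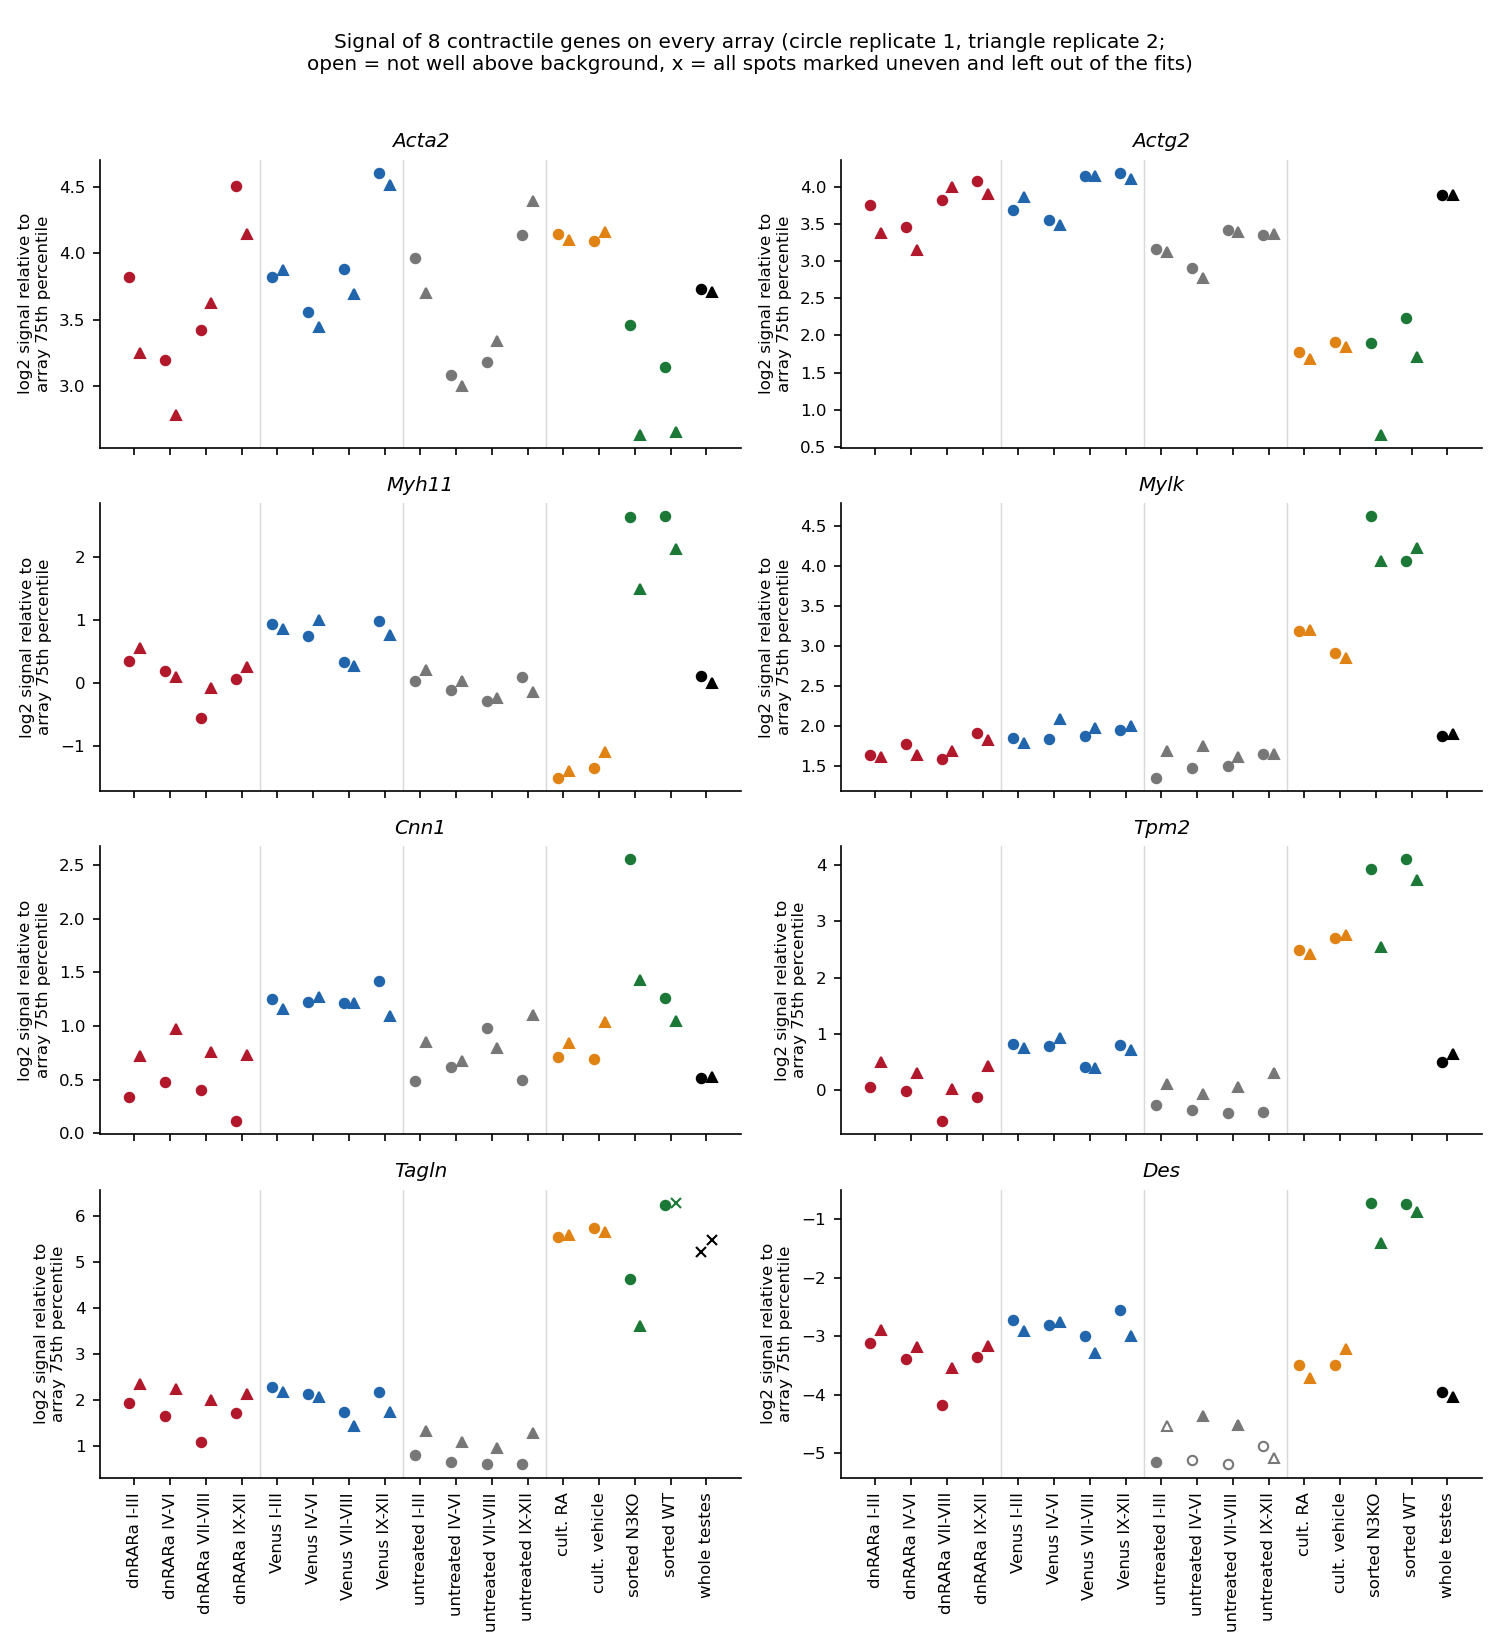
Level (log2 relative to the array's 75th percentile) of the 8 measured genes on each array, 1 panel per gene, with groups along the x axis. Circles are array 1 and triangles array 2 of a group, open marks are not well above background, and crosses are arrays on which all spots of the probe were left out. Sorted Sertoli cells hold the highest group mean of Cnn1, Des, Myh11, Mylk and Tpm2 and, on 1 WT array only, the highest Tagln value, while Venus tubules at IX-XII hold that of Acta2 and Actg2.

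Across the 17 groups, the 8 genes did not share 1 order. Myh11 was highest in sorted WT Sertoli cells (2.66 and 2.13) and lowest in cultured cells given retinoic acid (-1.51 and -1.40). Tpm2 was also highest in sorted WT cells (4.11 and 3.74) and lowest in dnRARa tubules at VII-VIII (-0.56 and 0.02). Des followed with -0.73 and -0.88 in sorted WT cells, at the top, and -4.88 and -5.08 in untreated IX-XII tubules, at the bottom and not well above background. Mylk and Cnn1 were highest in sorted N3KO cells, with 4.62 and 4.06 for Mylk and 2.56 and 1.43 for Cnn1. The lowest group mean was 1.51 in untreated I-III tubules for Mylk and 0.42 in dnRARa IX-XII tubules for Cnn1. Tagln ranged over 16 groups from 6.24 on the single sorted WT array with a value to 0.60 and 0.95 in untreated VII-VIII tubules. Its dimmer probe had a different top, with means of 3.34 in cultured vehicle and 3.13 in cultured retinoic acid cells against 1.88 in sorted WT cells.

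The actins ran differently. Actg2 was highest in Venus IX-XII tubules (4.19 and 4.11) and lowest in sorted N3KO cells (1.90 and 0.67). Acta2 was highest in Venus IX-XII tubules (4.61 and 4.51) and lowest in sorted WT cells (3.14 and 2.66), on its brightest probe. Most neighbours in these orders were not separated: the arrays of adjacent groups overlapped in 13 of 16 neighbouring pairs for Acta2, Cnn1 and Des, in 12 for Mylk and Tpm2, in 9 for Actg2 and Myh11, and in 11 of 15 for Tagln. As a description over the 12 tubule group means, Myh11 and Tpm2 correlated at 0.97 and Tagln and Des at 0.96, where the groups share slides and scan days.

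The Acta2 probes disagreed. The brightest, A_51_P450957, correlated at -0.07 and -0.06 over the 17 group means with the other Acta2 probes, A_52_P420504 and A_52_P210078, which correlated at 0.81 with each other. By contrast, both probes of Mylk correlated at 0.99, both of Tpm2 at 0.98 and both of Tagln at 0.97. Over the 12 tubule groups alone the correlation was 0.90 for Mylk, 0.64 for Tpm2 and 0.95 for Tagln, and 0.33, 0.42 and 0.08 among the Acta2 probes. On A_52_P420504, Acta2 read 5.15 and 4.59 in sorted WT cells against 2.11 and 2.15 in whole testes, the opposite order to the brightest probe (3.14 and 2.66 against 3.73 and 3.71). The levels of Actg2 correlated at 0.33 with the brightest Acta2 probe, and at -0.89 and -0.63 with the other probes. Acta2 is therefore given by probe below wherever the probes part.

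**Figure D2:**
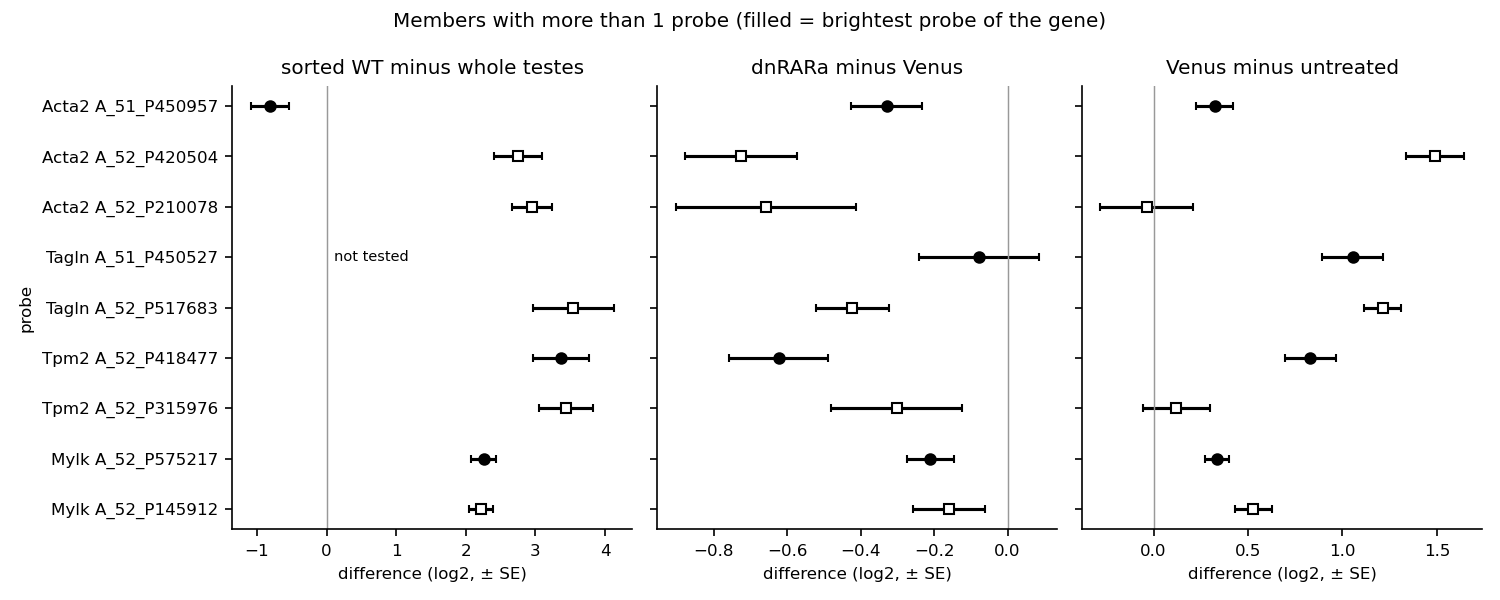
Difference (log2, with standard error) for each probe of the 4 genes that had more than 1 probe, in sorted WT cells minus whole testes, dnRARa minus Venus tubules and Venus minus untreated tubules. In sorted WT cells minus whole testes the brightest Acta2 probe gave -0.82, while the other Acta2 probes gave 2.74 and 2.95.

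The comparison of dnRARa with Venus tubules asked what changes when retinoic acid receptor signalling is blocked in the tubule. Over the 4 stages, 5 of the 8 genes were lower in dnRARa tubules, led by Myh11, Cnn1 and Tpm2 at about 1.5-fold to 1.6-fold, and none was higher. In all, 3.98% of the 24115 genes tested were lower and 8.31% higher, and the median of all genes was 0.02. The members' median was -0.40. The members were chosen with earlier results of these data known, so the shares given for this comparison are a description, not independent support. Fold changes, standard errors and adjusted p-values are from limma, with Benjamini-Hochberg adjustment over all genes tested and a threshold of 0.05.

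Myh11, the myosin motor itself, read 0.35 and 0.56 in I-III, 0.20 and 0.09 in IV-VI, -0.56 and -0.07 in VII-VIII and 0.07 and 0.26 in IX-XII dnRARa tubules. In Venus tubules it read 0.95 and 0.86, 0.76 and 1.00, 0.34 and 0.28, and 0.99 and 0.77 at the same stages. Every dnRARa array lay below both Venus arrays of its stage. The difference was -0.63 (SE 0.08), a 1.55-fold lower level, with adjusted p = 0.000171.

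Cnn1, an inhibitor of actomyosin, read between 0.11 and 0.97 on the 8 dnRARa arrays (median 0.60), against 1.09 to 1.42 on the 8 Venus arrays (median 1.22). The arms did not overlap even across stages, a rule for which the share of all genes was not counted. In IX-XII, where the gap was widest, Cnn1 read 0.11 and 0.73 in dnRARa and 1.42 and 1.09 in Venus tubules. The difference over stages was -0.67 (SE 0.12), or 1.59-fold lower, with adjusted p = 0.00265. Tpm2, the tropomyosin that lies along the actin filament, ranged from -0.56 to 0.49 on dnRARa arrays (median 0.04) and from 0.39 to 0.91 on Venus arrays (median 0.76). It was 1.54-fold lower (-0.62, SE 0.13, adjusted p = 0.00763), and within each stage both dnRARa arrays were below both Venus arrays. Its dimmer probe, A_52_P315976, gave -0.30 and did not pass (adjusted p = 0.306).

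Acta2 and Mylk moved less. Acta2 read 3.82 and 3.25, 3.19 and 2.78, 3.43 and 3.63, and 4.51 and 4.15 from I-III to IX-XII in dnRARa tubules, against 3.82 and 3.88, 3.55 and 3.44, 3.88 and 3.69, and 4.61 and 4.51 in Venus tubules. The fall was 1.26-fold on the brightest probe (-0.33, SE 0.10, adjusted p = 0.0379) and larger on A_52_P420504 (-0.73, SE 0.15, adjusted p = 0.00628), while A_52_P210078 gave -0.66 and did not pass (adjusted p = 0.0981). Mylk, the kinase that switches contraction on, ranged from 1.58 to 1.91 in dnRARa (median 1.66) and from 1.79 to 2.08 in Venus tubules (median 1.91). Its fall of 1.16-fold (-0.21, SE 0.06) lay just inside the threshold (adjusted p = 0.0476). The dimmer Mylk probe gave -0.16 and did not pass (adjusted p = 0.329).

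Of the remaining genes, Des gave -0.47 (SE 0.15, adjusted p = 0.0527) and Actg2 -0.21 (SE 0.07, adjusted p = 0.0591), both just outside the threshold. Actg2 passed with the scan day as a block (adjusted p = 0.0482). Tagln gave -0.08 (SE 0.16, adjusted p = 0.817) on its brightest probe, with 1.07 to 2.35 on dnRARa arrays (median 1.97) and 1.44 to 2.27 on Venus arrays (median 2.09). Those arms overlapped over most of their range. The dimmer Tagln probe fell by 0.42 (SE 0.10, adjusted p = 0.0125).

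Myh11, Cnn1 and Tpm2 kept their call without any 1 of the 16 arrays and with the slide as a random block (adjusted p = 0.000763 for Myh11, 0.00673 for Cnn1 and 0.0191 for Tpm2). With the mean of a gene's probes Tpm2 did not pass (-0.46, adjusted p = 0.058). Acta2 and Mylk did not pass with the slide block (adjusted p = 0.0813 and 0.111), and leaving out 1 array at a time ended the call of Acta2 in 11 of 16 cases and that of Mylk in 14.

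**Figure D3:**
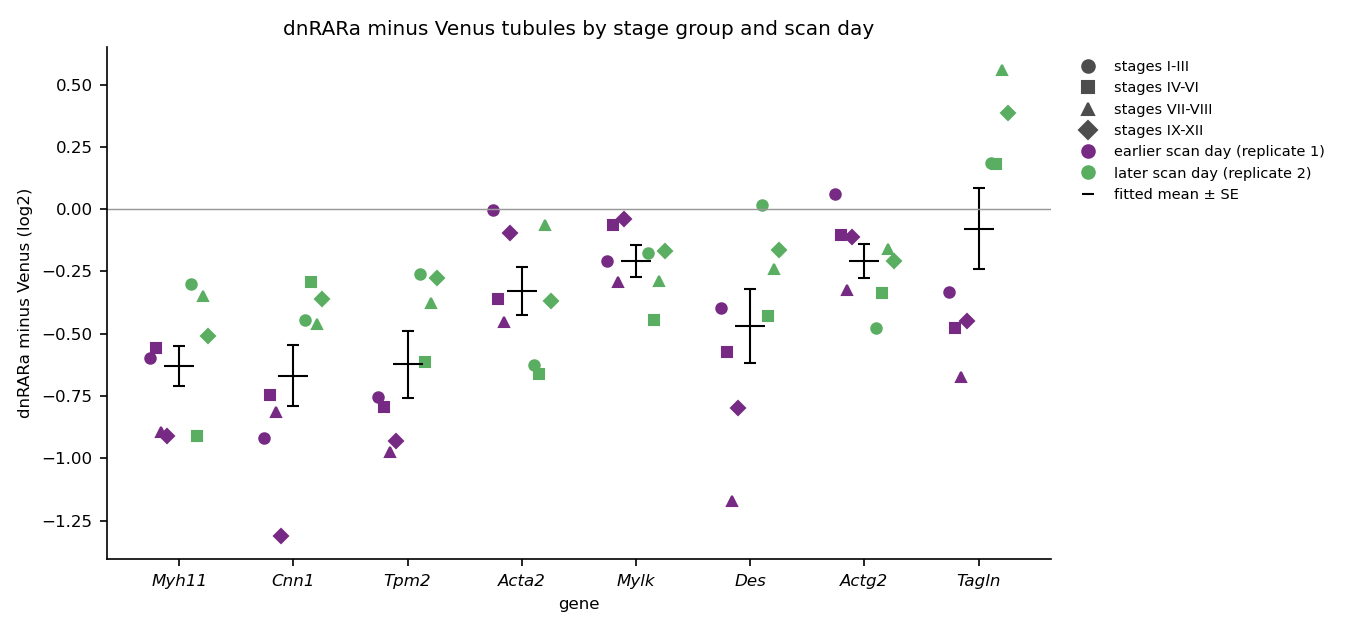
Difference in level (log2) of dnRARa minus Venus tubules for each gene, on its brightest probe. Each small mark is a difference within 1 stage between arrays of the earlier (purple) or later (green) scan day, and the black mark is the fitted mean with its standard error. All 8 marks are below 0 for Myh11, Cnn1, Tpm2, Acta2 and Mylk, and the purple and green marks of Tagln lie on opposite sides of 0.

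Pairing each dnRARa array with the Venus array of the same stage and scan day gave 8 differences per gene. On the brightest probes, all 8 were below 0 for Acta2, Myh11, Cnn1, Mylk and Tpm2, 7 for Actg2 and Des, and 4 for Tagln. Of all genes tested, 3.86% had all 8 below 0. Both dnRARa arrays lay below both Venus arrays in all 4 stages on the brightest probe of the same 5 genes. Of all genes, 2.6% did so. Acta2 kept this order on A_52_P420504 but not on A_52_P210078, and the dimmer Mylk and Tpm2 probes did not keep it. On A_52_P210078 in IX-XII, Acta2 read -1.20 with dnRARa and -1.32 with Venus on the later day, a difference above 0. In I-III the dimmer Tpm2 probe ran from -0.77 to -0.13 with dnRARa and from -0.54 to 0.03 with Venus.

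The size of the fall differed between scan days. Cnn1 differed by -0.95 ± 0.25 on the earlier day and by -0.39 ± 0.08 on the later one (mean ± SD over 4 stages). Tpm2 gave -0.86 ± 0.10 and -0.38 ± 0.16, and Tagln gave -0.48 ± 0.14 and 0.33 ± 0.18. The change between days passed the test for these 3 genes (adjusted p = 0.025 for Cnn1, 0.0244 for Tpm2 and 0.019 for Tagln), where 6.65% of all genes passed. Myh11 gave -0.74 ± 0.19 on the earlier and -0.52 ± 0.28 on the later day. Acta2 gave -0.23 ± 0.21 and -0.43 ± 0.28 on its brightest probe. On the other Acta2 probes dnRARa lay further below Venus on the earlier day than on the later in every stage. In IX-XII, A_52_P420504 read 2.49 with dnRARa and 3.83 with Venus on the earlier day, and 3.11 and 3.39 on the later. With only 8 arrays to fit, Cnn1, Myh11 and Tpm2 passed within the earlier day (adjusted p = 0.037, 0.0384 and 0.0317). None passed within the later day (0.0643, 0.0884 and 0.0964). On each day every virus had a single slide, and the stages on it stood in for replicates. The p-values within and between days therefore reflect scatter between stages, not between animals or slides.

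Stage by stage, Myh11 passed in IV-VI (-0.73, SE 0.16, adjusted p = 0.025) and in IX-XII (-0.71, SE 0.16, adjusted p = 0.0188), where 1.83% and 1.51% of genes were lower. In VII-VIII, where 0.788% of genes were lower and 1.54% differed in either direction, no gene of the 8 passed. Myh11 gave -0.62 there (adjusted p = 0.0736). Unadjusted, 5 of the 8 were below the threshold, as were 2923 of 23108 genes. In I-III 0 of 8 passed, where 0.00896% of all genes did, all of them higher. Unadjusted, 2 of the 8 (Myh11 and Cnn1, both lower) were below the threshold, as were 1541 of 22326 genes, 454 of them lower. The calls for Myh11 rested on both duplicates: without either Venus array or without dnRARa array 2 none of the 8 passed in IV-VI, and without any 1 of the 4 arrays none passed in IX-XII. The test of whether the effect of dnRARa differs between stages was passed by 0 of the 8 genes, none of them even unadjusted, and by 0.763% of all genes.

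Further genes of smooth muscle fell less in the median. Of 15 other contractile and smooth muscle genes tested, 2 were lower with dnRARa and none higher. Of all genes, 3.98% were lower and 8.31% higher. The list's median was -0.09, and 13 of its 15 differences were below 0. The 2 lower genes were Csrp1, a LIM protein of smooth muscle (-0.66), and Tpm1, the alpha-tropomyosin gene (-0.51). Of 16 non-muscle or striated relatives of the 8 genes, Cnn2, another calponin, was lower (-0.52) and Actc1, cardiac actin, higher (0.50). None of 6 transcription factor genes of the serum response factor and myocardin group passed, adjusted or not (median -0.03), with Myocd, the smooth muscle coactivator of serum response factor, at -0.20. Among 17 regulators of contraction, Edn1, the vasoconstrictor endothelin 1, was higher (0.99).

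Markers of neighbouring cell types were read in the same fit. None of 9 vascular mural genes passed, 3 doing so unadjusted (median -0.19), where 6402 of 24115 genes did so unadjusted. Their summed log2 level ran from -0.01 to 0.70 on dnRARa arrays and from 0.39 to 1.09 on Venus arrays. Of 9 Leydig cell genes 1 was lower, Cyp11a1 (-0.97), the cholesterol side-chain cleavage enzyme, and the list's median was -0.49. The summed Leydig level ran from 3.59 to 5.01 on dnRARa arrays and from 4.02 to 5.72 on Venus arrays. From I-III to IX-XII, the mural medians were 0.07, -0.51, -0.65 and -0.26, and the Leydig medians 0.35, -0.59, -0.98 and -0.72. Those of the contractile genes were -0.26, -0.51, -0.46 and -0.36 at the same stages. None of 15 peritubular stroma genes passed, 2 doing so unadjusted (median -0.09), and 1 of 10 endothelial genes, Cdh5, was higher (0.98). The part of interstitial or mural cells in the fall of the contractile genes was not tested. Among retinoic acid response genes, Cyp26a1 (-1.31) and Cyp26b1 (-0.38), which encode enzymes that degrade retinoic acid, were lower and Rara was higher.

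**Figure D4:**
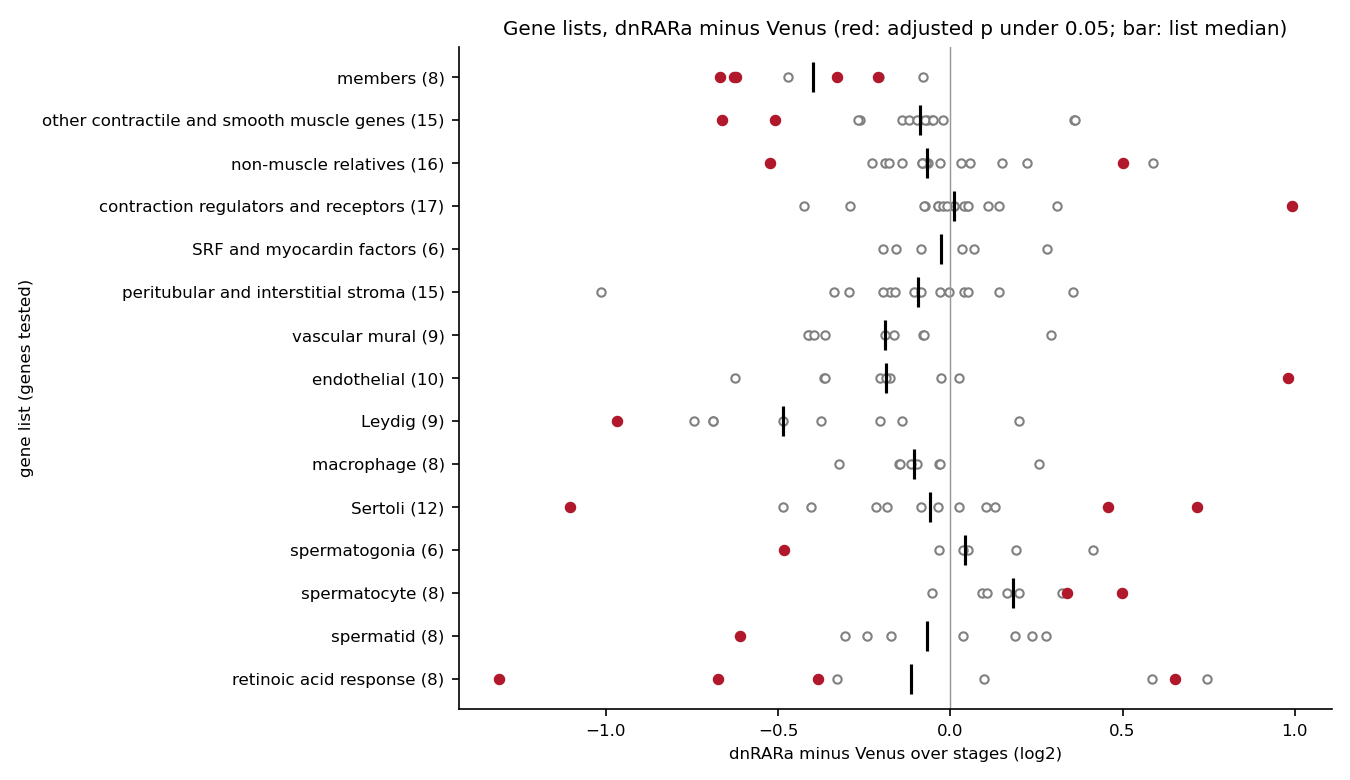
Difference in level (log2) of dnRARa minus Venus tubules over stages for every tested gene of 15 gene lists, 1 list a line. Red points passed the test, and the bar is the list's median, which was -0.40 for the contractile genes named here and -0.09 for the other contractile genes.

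Set against untreated tubules, tubules injected with the control virus had higher levels of all 8 genes, where 36.3% of all genes were higher and 30.6% lower (8618 and 7266 genes, against 4786 higher and 11141 lower with normexp background correction). Des showed the widest gap, with -3.29 to -2.55 on the 8 Venus arrays and -5.19 to -4.36 on the 8 untreated arrays, most of those not well above background. The fitted difference was 1.97 (SE 0.15). It rested on dim signals, and with normexp background correction it was 0.27 and did not pass (adjusted p = 0.266), while the other 7 genes still passed. Tagln was higher by 1.05 (SE 0.16), Tpm2 by 0.83 (SE 0.13), Myh11 by 0.79 (SE 0.08) and Actg2 by 0.71 (SE 0.07). Cnn1 (0.48), Mylk (0.33) and Acta2 (0.32, adjusted p = 0.00845) moved least. The other Acta2 probes gave 1.49 and -0.04, and the dimmer Tpm2 probe gave 0.12 (adjusted p = 0.566). Untreated and Venus arrays were scanned on different days, so the virus and the scan day cannot be told apart. Other lists moved as well: 10 of 12 Sertoli genes and 6 of 8 macrophage genes were higher, 3 of 9 mural genes were higher and 5 lower, and 5 of 14 other contractile genes were higher and 2 lower. The part of those cells in the result was not tested.

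Because both comparisons share the Venus arrays, the levels of the 3 arms are given side by side. The median of Myh11 over 8 arrays was 0.15 with dnRARa, 0.81 with Venus and -0.04 in untreated tubules. For Cnn1 the medians were 0.60, 1.22 and 0.74, and for Tpm2 0.04, 0.76 and -0.18, in the same order of arms. On each of the 3 genes, which are those with the largest falls from Venus, the Venus arm was the highest. On the brightest probes, their dnRARa medians were closer to the untreated one than to the Venus one. Those of Acta2 and Mylk were too. The dimmer Mylk probe stood closer to Venus, with dnRARa minus Venus at -0.16 and Venus minus untreated at 0.53. For Acta2 these differences were -0.73 and 1.49 on A_52_P420504, about midway, and -0.66 and -0.04 on A_52_P210078, where Venus was not above untreated. For Des (-3.26, -2.86 and -4.98), Tagln (1.97, 2.09 and 0.88) and Actg2 (3.78, 3.99 and 3.25) the dnRARa median was closer to the Venus one.

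**Figure D5:**
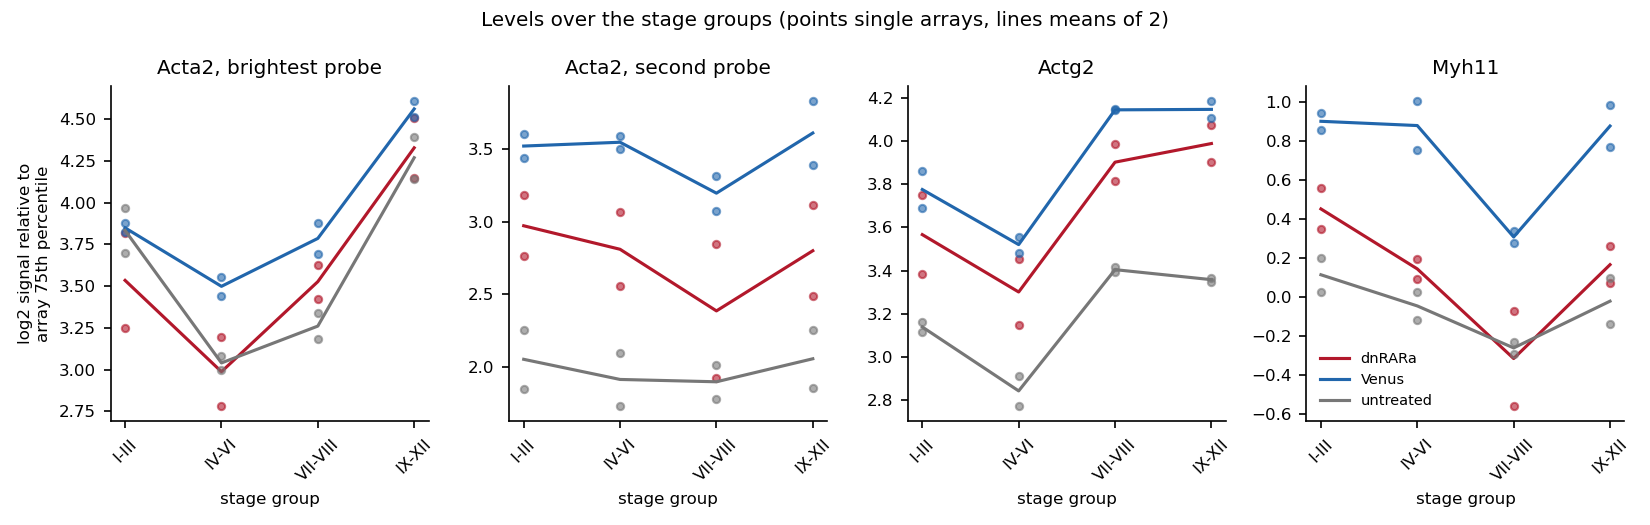
Level (log2 relative to the array's 75th percentile) over the 4 stage groups in dnRARa, Venus and untreated tubules, for 2 probes of Acta2 and for Actg2 and Myh11, with every array shown. The brightest Acta2 probe is lowest in IV-VI and highest in IX-XII in every arm, and the other Acta2 probe shows no such shape.

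Actg2 and the brightest Acta2 probe differed between stages, as most genes did. On its brightest probe Acta2 was lowest in IV-VI and highest in IX-XII in each arm, spanning 1.34 in dnRARa, 1.06 in Venus and 1.23 in untreated tubules between the means of those stages. It passed the F test between stages in each arm (adjusted p = 0.000274, 0.00164 and 0.000154 in that order), as did 55%, 54% and 69.2% of all genes. Neither other Acta2 probe passed in any arm, with adjusted p of 0.387, 0.645 and 0.93 for A_52_P420504 and of 0.551, 0.825 and 0.92 for A_52_P210078. Actg2 was lowest in IV-VI in each arm, spanning 0.69, 0.63 and 0.56 (adjusted p = 0.00153, 0.00209 and 0.00515).

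Myh11 was lowest in VII-VIII in each arm. Its span passed in dnRARa (0.77, adjusted p = 0.00581) and Venus tubules (0.59, adjusted p = 0.0115), and was 0.37 in untreated tubules (adjusted p = 0.198). In all, 3 of 8 genes passed in dnRARa, 3 of 8 in Venus and 2 of 7 in untreated tubules, where Des was not tested. Of all genes, 55%, 54% and 69.2% passed in the same order of arms. In the untreated arm the stages I-III and IV-VI each sat on a slide of their own, and only VII-VIII and IX-XII shared one, whereas all 4 stages shared each slide in the injected arms. Stage and slide there cannot be told apart, except between VII-VIII and IX-XII.

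In sorted WT Sertoli cells against whole testes, 4 of 7 tested genes were higher and 2 lower, where 38.4% of all genes were higher and 40.8% lower. Tpm2 read 4.11 and 3.74 in sorted cells against 0.49 and 0.63 in testes, a difference of 3.36 (SE 0.40). Des was higher by 3.19 (SE 0.23), Myh11 by 2.34 (SE 0.36) and Mylk by 2.26 (SE 0.18), and Cnn1 gave 0.64 (adjusted p = 0.121). Tagln could be tested on its dimmer probe only, which was higher by 3.54 (SE 0.58, adjusted p = 0.00105). Actg2 was lower in sorted cells (-1.92, SE 0.37, adjusted p = 0.00246), as were 8 of 8 spermatid and 7 of 8 spermatocyte genes. The part of germ cells in the level of Actg2 was not tested. Acta2 was lower on the brightest probe (-0.82, SE 0.27, adjusted p = 0.0281) and higher on the others by 2.74 (adjusted p = 0.000256) and 2.95 (adjusted p = 6.83e-05). Markers of other somatic cells were higher too: 10 of 10 Leydig, 9 of 9 mural, 9 of 10 endothelial, 4 of 8 macrophage and 8 of 12 Sertoli genes, with medians of 4.35 for Leydig, 3.02 for mural and 0.79 for Sertoli genes. Of 16 other contractile genes, 12 were higher and 1 lower. The part of such cells in the result was not tested.

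Between sorted N3KO and sorted WT cells only Tagln passed, where 48.8% of all genes passed and 22.5% were lower. Tagln read 4.63 and 3.60 in N3KO against 6.24 on the 1 WT array with a value (-2.13, SE 0.43, adjusted p = 0.0134). The lone WT array is assumed to vary as the other groups do, and this probe's spots were marked uneven on the other 3 arrays of its slide. The dimmer probe, with values on every array, read 2.12 and 0.06 in N3KO against 2.14 and 1.62 in WT cells and did not pass (-0.79, adjusted p = 0.298). N3KO duplicates lay far apart: Tpm2 read 3.93 and 2.54 and Actg2 1.90 and 0.67 in N3KO, against 4.11 and 3.74 and 2.23 and 1.71 in WT cells. Without N3KO array 1, 5 genes passed (Actg2, Des, Myh11, Tagln and Tpm2, all lower), without N3KO array 2, 3 passed, and without WT array 1 none did. N3KO and WT cells sat on different slides, and slide and genotype cannot be told apart. Among other lists, 7 of 8 macrophage genes were higher and 6 of 10 Leydig genes lower in N3KO cells.

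Cultured vehicle cells differed from sorted WT cells most in Myh11, at -1.34 and -1.10 in culture against 2.66 and 2.13 in sorted cells (-3.62). Des (-2.54), Mylk (-1.27) and Tpm2 (-1.19) were lower too, and Acta2 was higher on its brightest probe (1.23) but not on the others (-0.47 and -0.11, neither past the threshold). In this comparison 42.7% of all genes were lower and 32.1% higher. Over all genes the median difference was -0.21, and 0.72 when arrays were scaled by their median. Under it Mylk (-0.34) and Tpm2 (-0.27) no longer passed, and Myh11, Des and Acta2 kept their directions. Leaving out any of the 4 arrays ended the call of Tpm2. Of the other lists, 10 of 10 Leydig, 10 of 10 endothelial and 7 of 9 mural genes were lower in culture. Culture and slide cannot be told apart.

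Retinoic acid given to cultured cells moved none of the 8 genes past the threshold, adjusted or not, where 5.47% of all genes passed. Myh11 read -1.51 and -1.40 with retinoic acid and -1.34 and -1.10 with vehicle, and Mylk 3.19 and 3.19 against 2.91 and 2.84. Fitted on these 4 arrays alone, Mylk (higher) and Tpm2 (lower) passed. In the same cells 5 of 8 retinoic acid response genes were higher, among them Cyp26a1, which degrades retinoic acid (9.44), and Stra8, a classical retinoic acid target of germ cells (3.92).

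Untreated tubules had lower Actg2 (-0.70), Tpm2 (-0.70), Mylk (-0.30) and Des (-0.85) than whole testes, where 34.4% of all genes were lower (7426 lower and 3870 higher). Tubules and testes sat on different slides scanned on different days, so preparation, slide and scan day cannot be told apart. The value for Des was measured against dim signals, not well above background on 5 of the 8 untreated arrays, and it was 0.29 with normexp background correction (adjusted p = 0.487). Scaling by the array median gave 3997 lower and 6619 higher genes. Under it Actg2 (-0.40, adjusted p = 0.0516), Tpm2 (-0.40, adjusted p = 0.151) and Mylk (-0.0054, adjusted p = 0.966) did not pass, and Cnn1 was higher (0.53, adjusted p = 0.0363). Actg2 averaged between 2.84 and 3.40 in the 4 untreated stage groups, against 3.89 and 3.89 on the testis arrays. The calls rested on both testis arrays: without array 1 none of the 4 passed, and without array 2 only Des did. Without array 1 of untreated I-III or of untreated VII-VIII, only Actg2 and Des passed.

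The genes whose profile over the 17 group means was most like the mean profile of the contractile genes, of 13455 compared, were Thnsl2 (r = 0.97), Sdf4, S1pr3, Gpld1, Fbxl22, Ech1, Uqcr10 and Hoxd10 (r = 0.95). Over the 12 tubule group means, of 13162 compared, they were Med20 (r = 0.98), Evl, Crebl2, Exoc1, Bcas3, Rrp1, Fars2 and Abhd12. No gene was among both sets of 8. The mean profile did not stand for every member: over the 17 groups it correlated at -0.56 with Actg2 and -0.12 with Acta2. With the other members it correlated at 0.58 (Myh11) to 0.93 (Tpm2), and over the 12 tubule groups with all at 0.50 (Acta2) to 0.93 (Tpm2). The points share slides, scan days and cell makeup, and the correlations are a description.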

How the data were processed

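Cy3-labelled total RNA was hybridised to 1-colour Agilent arrays. The deposited files hold scanner intensities, and the processed intensity used here was background-subtracted by the authors with Agilent Feature Extraction (version 9.5 per the submitters' processing notes, 9.5.3.1 per the file headers). Of 45018 spots per array, 1639 control spots and spots marked as uneven or outliers were left out. Log2 processed intensity minus the array's 75th percentile was averaged over spots of a probe. Of 41174 probes, 22951 were named by accession and 67 by symbol or synonym, and 18156 had no symbol. A gene was read on its brightest probe, and tested where 1 or more of the groups compared had that probe flagged well above background on each of its arrays. R 4.3.3 and limma 3.58.1 fitted group means (10 cell and testis arrays, 24 tubule arrays, or all 34 for untreated tubules against testes), with Benjamini-Hochberg adjustment within each of 15 comparisons at 0.05. The procedure was tested on simulated data. The members and lists were chosen with earlier results of these data known. The text names the members, up to 4 genes of each other list by smallest adjusted p, the 8 genes of most similar profile, Nanos3 and Rara. One listed gene is not reported here. Same-numbered dnRARa and Venus arrays of a stage did not deviate together (r -0.138 to 0.0964), so numbers were not treated as pairs. Within a virus, same-numbered arrays shared a slide. Their deviations correlated between stages at 0.291 to 0.666 for dnRARa and at 0.0204 to 0.461 for Venus. The main fit took these arrays as independent, and the slide as a random block was an alternative. Duplicates are biological per the series' design text. Alternatives were other scalings, normexp background, filters, probes, models and blocks, and leaving out each array.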

Additional observations from a re-analysis of the deposited data

Results flagged for a closer look

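For 3 of the contractile genes the effect of dnRARa differed between the earlier and the later scan day, by a test of the difference itself (limma, adjusted over all genes). The dnRARa minus Venus difference was larger by 0.56 on the later day for Cnn1 (SE 0.11, adjusted p = 0.025), by 0.81 for Tagln (SE 0.14, adjusted p = 0.019) and by 0.48 for Tpm2 (SE 0.09, adjusted p = 0.0244), each on the log2 scale. For Cnn1 and Tpm2 the fall was smaller on the later day and kept its direction in all 4 stages on both days. For Tagln the sign turned, from below 0 in every stage on the earlier day to above 0 in every stage on the later day. The days also hold different biological duplicates and slides, 1 slide per virus and day, and these cannot be told apart. The stages on a slide served as replicates in this test, so its p-values reflect scatter between stages and not between slides or animals.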

How the results depend on the processing

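Of 2404 values of single genes under alternatives, 2199 kept direction and side of the threshold, 119 lost and 42 gained the call, and 44 changed sign; the causes were not tested. For dnRARa against Venus over stages, 5 genes passed; Myh11, Cnn1 and Tpm2 (3) passed with normexp background, without a detection filter, with slide as a random block and within the earlier scan day, Acta2, Cnn1 and Myh11 (3) with the mean of probes, 0 within the later day, and 3 to 6 without single arrays; the replicate block gave 7, adding Actg2 and Des. Within IV-VI, 1 passed, against 0 without a filter, with only the arrays compared and with all 34 arrays in 1 model, 2 with the replicate block and 0 to 1 without single arrays. Within IX-XII, 1 passed, against 0 with normexp, only the arrays compared and all arrays, 2 with an intensity trend and with the replicate block, and 0 without single arrays. In VII-VIII the median scaling gave 1, and single arrays 0 to 1. For N3KO against WT, 1 passed, against 4 with median scaling, 0 with detection on every array, the mean of probes or only the arrays compared, 3 with all arrays, and 0 to 5 without single arrays. Retinoic acid gave 2 with only the arrays compared. Untreated tubules against testes gave 4, against 2 with quantile, median or normexp scaling and 0 to 4 without single arrays. Stage tests gave 1 with the mean of probes or all arrays in untreated, 1 with all arrays in Venus, and 1 with only the arrays compared or all arrays in dnRARa tubules, and 1 to 2 untreated without single arrays. In Venus against untreated 8 passed, and 7 with normexp or with detection on every array, where Des was lost or not tested.

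Signs turned as follows. Acta2 in sorted WT cells against testes was 1.63 with the mean of probes and 2.74 and 2.95 on the other probes. In N3KO against WT, Des was 0.31 and Myh11 0.24 with median scaling and Acta2 -0.0181 with normexp; without single arrays Acta2 ran from -0.27 to 0.56, Mylk from -0.0845 to 0.48, Des from -0.60 to 0.0915, Myh11 from -0.89 to 0.24 and Tpm2 from -1.38 to 0.0106. In culture against sorted WT, median scaling gave Actg2 0.83, Cnn1 0.64 and Tagln 0.42, Tagln was 1.62 with the mean of probes and 1.46 on its dimmer probe, Actg2 ran from -0.35 to 0.17 without single arrays, and Acta2 was -0.47 and -0.11 on the other probes. With retinoic acid, Acta2 was -0.0463 with quantile, -0.019 with median scaling, -0.21 with the mean of probes and -0.32 and -0.30 on the other probes; without single arrays it ran from -0.031 to 0.0351 and Cnn1 from -0.26 to 0.083. In untreated tubules against testes, Acta2 was 0.18 with median scaling, 0.24 with the mean of probes and 0.97 on A_52_P210078, Myh11 was 0.19 with median scaling and 0.0261 with normexp, and Des 0.29 with normexp. Tagln with dnRARa was 0.33 within the later day and 0.0507 in IX-XII with normexp; without single arrays it ran from -0.19 to 0.037 over stages, -0.28 to 0.13 in I-III, -0.45 to 0.15 in IV-VI, -0.52 to 0.40 in VII-VIII and -0.24 to 0.18 in IX-XII. Acta2 in Venus against untreated was -0.0357 on A_52_P210078.

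Scaling also moved the counts over all genes, given as lower and higher. With dnRARa over stages they were 959 and 2005, against 1212 and 1578 with quantile, 1313 and 1541 with median and 317 and 414 with normexp scaling. N3KO against WT gave 4841 and 5640, against 4304 and 7832, 3552 and 11954, and 2651 and 4857 in the same order of settings, and the median of all genes was 0.07 and, with median scaling, 0.64. Culture gave 9584 and 7198, against 7648 and 8814 with quantile and 6070 and 11932 with median scaling. Untreated tubules against testes gave 7426 and 3870, against 5721 and 4801, 3997 and 6619, and 3505 and 3526, with medians of -0.21 and, with median scaling, 0.09. Normexp turned Venus against untreated from 7266 and 8618 to 11141 and 4786 (median -0.32), and gave 44 and 15 in VII-VIII, against 182 and 174, and 126 and 134 in IX-XII, against 349 and 736. The scan-day fits and the keeping of marked spots, which left 5 genes, were chosen after seeing the data. Dim Des signals limit what untreated tubules can show.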
